A study of Mus musculus with 8 samples.

Results

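The genes described here belong to the BMP and TGF-beta signalling pathways: 12 BMP and GDF ligand genes, 6 ligand genes of the TGF-beta, activin and inhibin type, 11 receptor genes, 8 Smad genes, 7 genes of antagonists and binding proteins, 4 genes of latent TGF-beta binding proteins and the 4 Id genes. They were chosen by symbol, and all 52 were found among the 24346 genes of the expression table. RNA had been sequenced from multipotent mesenchymal stem/stromal cells (MSCs) of mouse bone marrow in 8 libraries, 2 for every group. The 4 groups were undifferentiated WT, undifferentiated *Dnmt3l* KO, differentiating WT and differentiating *Dnmt3l* KO MSCs. Differentiating MSCs had spent 3 days in osteogenic induction medium. *Dnmt3l* encodes a relative of the de novo DNA methyltransferases that has no catalytic activity of its own and is best known from germ cells and embryonic stem cells. The KO carried the tmEnls allele on both chromosomes, the WT controls were +/+ littermates, and all cells were from the C57BL/6 background and at passage 4. According to the methods, marrow of female mice aged 8 to 16 weeks was used, cells of 3 mice of a genotype were mixed, and cells bearing CD11b or CD45 were depleted. Whether both libraries of a group stem from 1 mix or from several is not given in the sources used here, so p-values measure only the spread between these samples, which may be technical. Growth medium contained 20% FBS, whereas induction medium contained 10% FBS and, as inducers, dexamethasone at 0.1 μM, ascorbic acid 2-phosphate at 50 μM and β-glycerophosphate at 10 mM. The effects of these agents and of the lower serum cannot be told apart.

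BMP, GDF, TGF-beta and activin ligands are secreted dimers that assemble type I and type II serine/threonine kinase receptors on the cell surface. The activated type I receptor phosphorylates receptor Smads, namely *Smad1*, *Smad5* and *Smad9* downstream of BMPs and *Smad2* and *Smad3* downstream of TGF-beta and activin, which then join *Smad4* and act on genes in the nucleus. Id genes are classic direct targets of the BMP branch, and *Smad6* and *Smad7* are inhibitory Smads that are themselves targets and close a negative feedback loop. Noggin, Gremlin 1 and chordin-like 1 bind BMPs, follistatin binds activins, and latent TGF-beta binding proteins (LTBPs) anchor most latent TGF-beta in the matrix. In bone marrow stroma these pathways are known for roles in osteoblast commitment, chondrogenesis and matrix production.

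Levels are given as RPKM, a read density corrected for transcript length and library size, so that genes can be compared within a library, one value per gene and library. Low values gave an estimated depth of 47.95 to 66.85 M reads per library (the deepest was replicate 1 of differentiating WT), at which 3 reads on *Bmp4* correspond to 0.0241 to 0.0336 RPKM; such floors cover counting error only. Replicates of a group differed by more than sampling noise and were counted separately. *Dnmt3l* itself was low, at 1.56 and 1.09 RPKM in undifferentiated WT and 0.845 and 0.830 in differentiating WT, and was listed at 0 in all 4 KO libraries. The paper reports that WT reads covered only the later exons of the gene. It also reports that the canonical DNMT3L protein was not detected in MSCs. MSC markers were present in every library (12 of 12 tested), whereas *Ptprc*, which encodes CD45, did not exceed 0.127 RPKM and *Hbb-bs* was at 0 in all libraries. Hematopoietic markers nevertheless moved with genotype. Their 10 genes summed to 20.4 to 21.3 RPKM in undifferentiated WT, 10.0 to 11.0 in undifferentiated KO, 32.7 to 37.4 in differentiating WT and 14.1 to 15.1 in differentiating KO. *Lyz2* made the largest part of that sum in each library. Of 8 tested genes 4 were lower and 2 higher in undifferentiated KO, where 17.5% of all genes were lower and 14.7% higher. In differentiating KO 7 were lower and 1 higher (22.9% and 17.8% of all genes). These and the later marker counts are by an adjusted p-value under 0.05 in limma, as described below. The 5 proliferation markers summed to 178 to 179 RPKM in undifferentiated WT, 230 to 235 in undifferentiated KO, 105 to 113 in differentiating WT and 56.2 to 70.6 in differentiating KO. With induction, 6 adipocyte markers summed to 420 to 467 RPKM after 57.1 to 67.7 before, and 3 genes of the dexamethasone response to 540 to 561 in WT and 731 to 762 in KO after 35.3 to 41.2. Of these 3 genes, *Tsc22d3* was higher in differentiating KO (means of 446 RPKM in WT and 630 in KO, adjusted p = 0.00128 in limma). *Fkbp5* and *Per1* did not pass that test (adjusted p = 0.0526 and 0.645). The 12 osteoblast markers summed to 4127 to 4234 RPKM in undifferentiated WT and 3743 to 3795 in undifferentiated KO. After induction they summed to 6954 to 7278 in WT and 4709 to 5096 in KO. Of the 12, 1 was higher and 5 lower in undifferentiated KO (14.7% and 17.5% of all genes). In differentiating KO 0 were higher and 9 lower (17.8% and 22.9%). With induction 4 rose and 2 fell in WT (31.6% and 32.8% of all genes), and 3 rose and 5 fell in KO (36.4% and 36.6%). *Postn* alone averaged 307 RPKM before and 2352 after induction in WT, and 136 and 1870 in KO. The part of these markers in the differences described below was not tested, and in bulk RNA fewer cells of a type and less RNA per cell cannot be told apart.

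Across the pathway, levels spanned more than 5 orders of magnitude. In undifferentiated WT MSCs the highest were *Fstl1*, a secreted follistatin-like glycoprotein, at 885 ± 4.82 RPKM (mean ± SD, n = 2, as for all means below) and *Id3*, a dominant-negative helix-loop-helix factor, at 334 ± 18.8 RPKM. *Tgfb3* followed at 165 ± 6.71 RPKM and *Inhba*, which encodes the activin A subunit, at 100.3 ± 0.294 RPKM. These 4 genes also led in undifferentiated KO, where *Inhba* and *Tgfb3* did not differ beyond their spread (116 ± 2.04 and 115 ± 2.82 RPKM). In differentiating WT the order was *Fstl1*, *Id3*, *Fst* and *Id1*, and in differentiating KO it was *Fstl1*, *Id3*, *Fst* and *Tgfbr3*. Among the lowest, *Bmp7* and *Gdf10* stayed at or below 0.166 RPKM in every library and lay below the value of 3 reads in 2 libraries each. Their means were under the minimum of 0.1 RPKM over all libraries and they were not tested, unlike the other 50 genes.

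**Figure D1:**
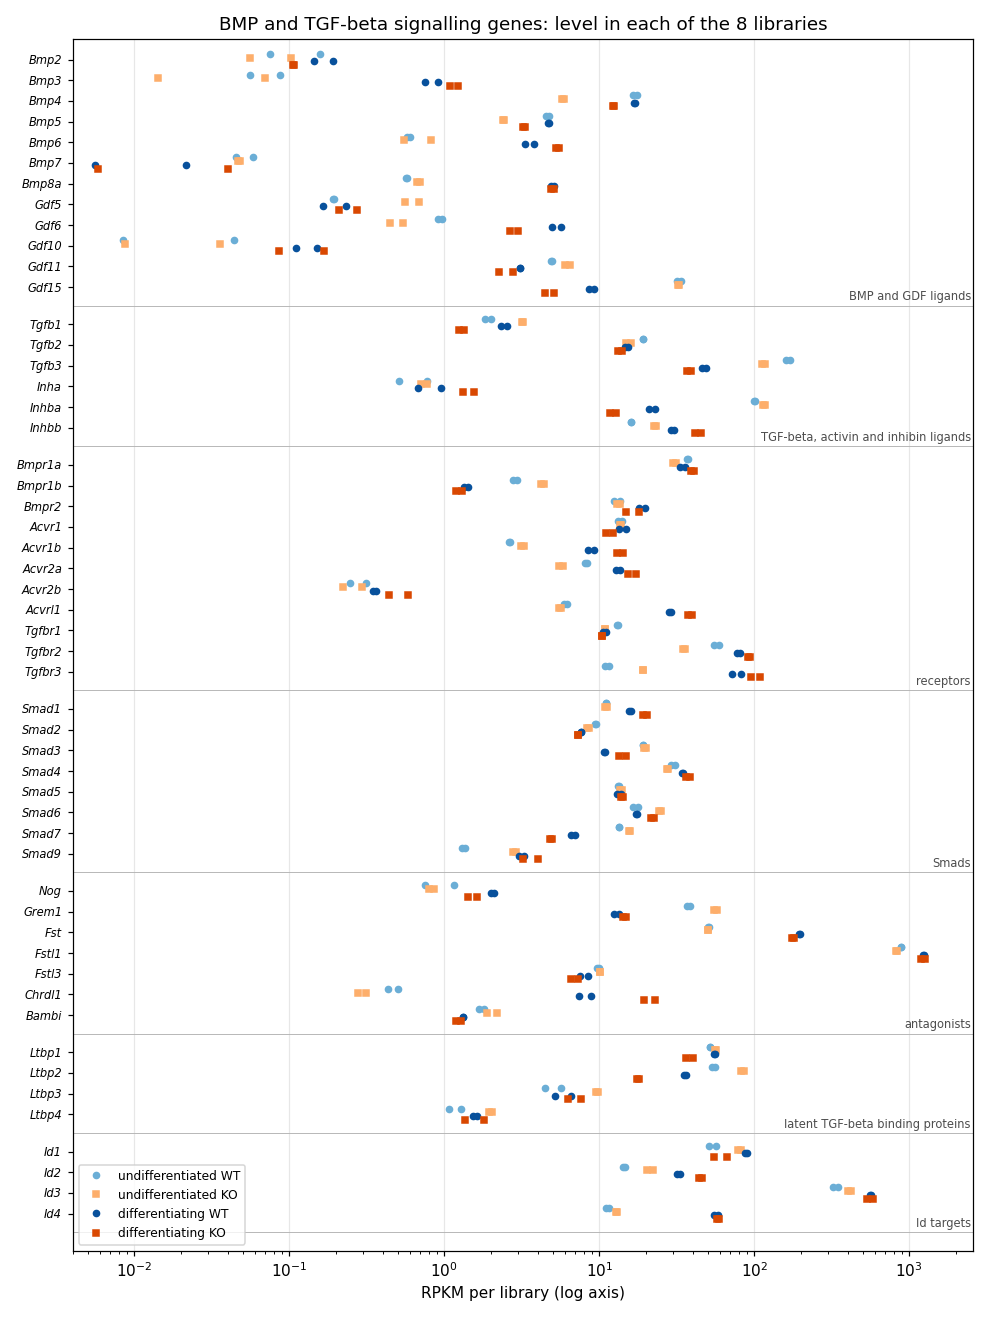
Each point is 1 library and gives the RPKM (log axis) of 1 of the 52 genes, grouped by role; circles are WT, squares are KO, light colours undifferentiated and dark colours differentiating MSCs. *Fstl1* and *Id3* lie at the right in every group, *Bmp4* in undifferentiated KO (5.73 and 5.91 RPKM) stands left of all other groups, and *Chrdl1* spans from 0.277 to 23.0 RPKM.

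Comparisons were made with limma on log2(RPKM + 0.1), with p-values adjusted over all 15342 genes tested. A gene is said to have risen, fallen, or been higher or lower where the adjusted p-value was under 0.05, and to have been called where the absolute log2 fold change was also above 1, the limits the study used. In undifferentiated MSCs 3 of 50 genes (6.00%) were called between KO and WT, against 1.70% of all genes tested, namely *Gdf5* and *Smad9* higher (0.613% of all genes were) and *Bmp4* lower (1.09%). By the adjusted p-value alone, 20 genes were higher and 11 lower, against 14.7% and 17.5% of all genes in these directions and 32.2% in either. In differentiating MSCs 2 of 50 genes (4.00%) were called, a share near the 3.30% of all genes, with *Chrdl1* higher (1.36% of all genes) and *Ltbp2* lower (1.95%). Here 15 genes were higher and 13 lower by the adjusted p-value alone, against 17.8% and 22.9% of all genes and 40.7% in either direction. Induction called 17 genes in WT (34.0%, against 14.3%), 13 higher and 4 lower, with 9.69% and 4.63% of all genes called in these directions. In KO it called 24 genes (48.0%, against 22.9%), 14 higher and 10 lower, with 13.0% and 9.87% of all genes. By the adjusted p-value alone, 23 genes rose and 14 fell in WT and 26 rose and 20 fell in KO, and of all genes 31.6% rose and 32.8% fell in WT (64.4% in all) and 36.4% rose and 36.6% fell in KO (72.9%). The median log2 fold change of the 50 genes with induction was 0.29 in WT and 0.32 in KO, beside medians of 0 and -7.9e-05 over all genes tested. Of the interaction, the difference between the KO response and the WT response, 7 of 50 genes were called (14.0%, against 6.17%), 2 positive and 5 negative (2.76% and 3.42% of all genes).

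Scaling bears on the induction counts. Centring each library on its median moved the median of all genes by -0.10 in WT and -0.082 in KO, and then 12 genes were called higher and 6 lower in WT; with quantile normalization the split was 11 and 6. For all genes the share of calls that were higher in WT was 67.7% as deposited, 56.4% with quantile normalization and 59.6% with centring. None of the 169 differences of these genes that passed the test changed direction under either scaling.

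**Figure D2:**
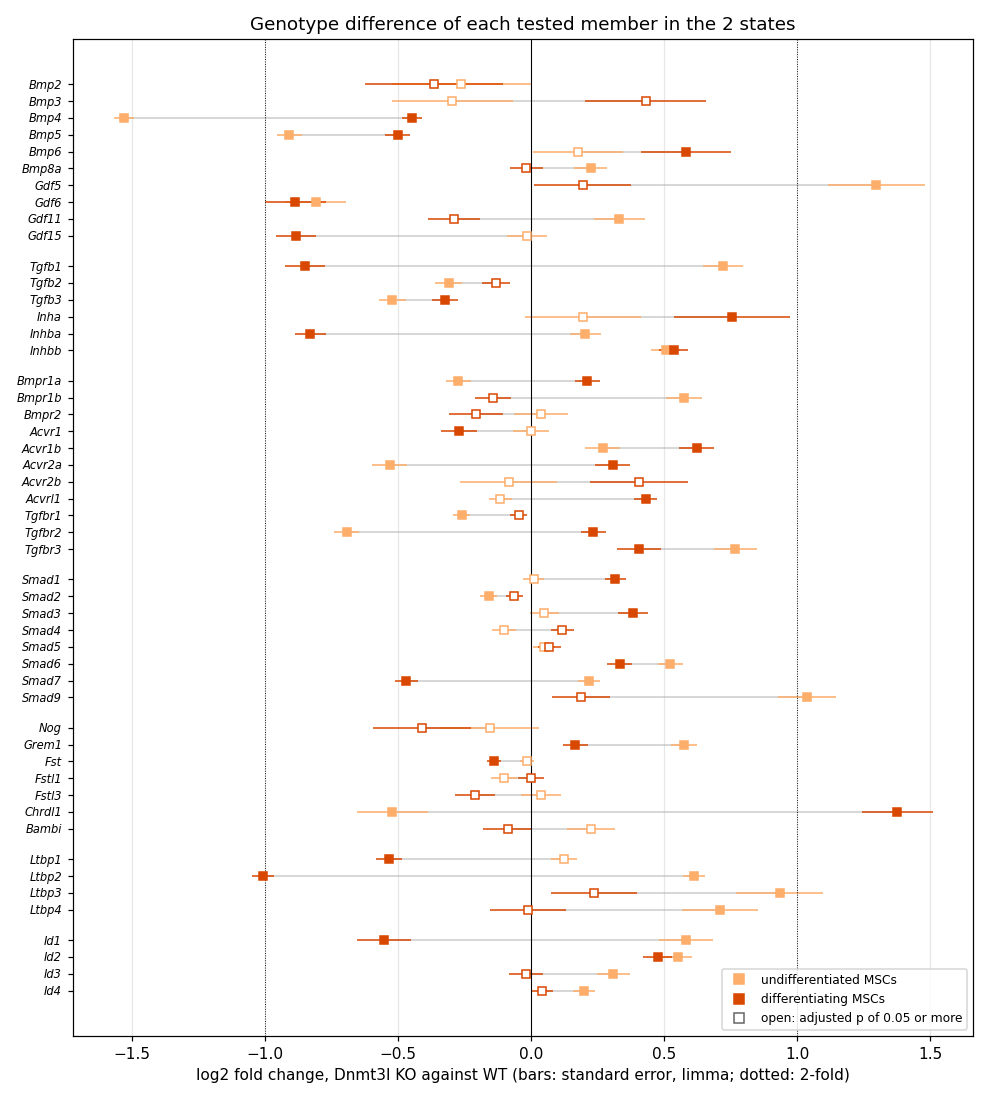
Squares give the log2 fold change of KO against WT for each of the 50 tested genes in undifferentiated (light) and differentiating (dark) MSCs, with the standard error from limma as bars; open squares had an adjusted p-value of 0.05 or more and dotted lines mark a 2-fold difference. *Ltbp2*, *Tgfb1*, *Inhba* and *Id1* lie right of 0 in undifferentiated and left of 0 in differentiating MSCs, and *Chrdl1* lies the other way round.

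Among the BMP and GDF ligands, *Bmp4* was the most abundant apart from *Gdf15* in every group but undifferentiated KO, and it was the only one called lower in undifferentiated KO. *Bmp4*, a BMP that induces bone and cartilage and signals through *Bmpr1a* and *Bmpr1b*, lies on chromosome 14 (46383520 to 46390669, minus strand, GENCODE annotation of GRCm38, as for all positions below). It measured 17.4 and 16.6 RPKM in undifferentiated WT and 5.73 and 5.91 in undifferentiated KO, and 17.1 and 16.7 in differentiating WT and 12.3 and 12.5 in differentiating KO. All 4 KO libraries were below all 4 WT libraries, and undifferentiated KO was lowest without overlap. In undifferentiated MSCs *Bmp4* was 2.89-fold lower in KO (log2 -1.53 ± 0.038, SE here and below; adjusted p = 2.23e-05), and in differentiating MSCs 1.36-fold lower (log2 -0.45 ± 0.038, adjusted p = 0.00102). Induction left WT at its level (log2 -0.0074 ± 0.038, adjusted p = 0.885) and raised KO 2.11-fold, which made the interaction 1.08 ± 0.054 (adjusted p = 0.000341). Both lie near the limit of a call. On the log2 scale the rise in KO was 0.99 with median centring and 0.97 with a pseudocount of 1. With that pseudocount the interaction was 0.98. The promoter window of *Bmp4*, from 250 bases before to 50 bases after the transcript start (RefSeq, GRCm38.p6, chr14:46390620-46390919, minus strand), is shown because the gene was the one of the 50 called lower in undifferentiated KO, and it was picked after its values were seen. Capitals in this and the later windows mark the motifs GGCGCC, GTCTAGAC and CAGAC, sought on both strands (CAGAC reads GTCTG on the other); this one holds none of them and 12 CpG dinucleotides.
Bmp4: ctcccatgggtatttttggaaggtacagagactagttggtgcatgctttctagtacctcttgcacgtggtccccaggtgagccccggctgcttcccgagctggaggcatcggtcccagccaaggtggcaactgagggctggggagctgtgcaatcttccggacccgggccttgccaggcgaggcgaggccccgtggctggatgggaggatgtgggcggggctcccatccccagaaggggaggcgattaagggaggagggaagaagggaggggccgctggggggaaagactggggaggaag

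*Bmp5* and *Gdf6*, both BMP-type ligands with roles in skeletal development, were lower in KO in both states. *Bmp5* averaged 4.62 ± 0.153 RPKM in undifferentiated WT, 2.41 ± 0.0198 in undifferentiated KO, 4.68 ± 0.0547 in differentiating WT and 3.28 ± 0.0750 in differentiating KO. Its difference between KO and WT was -0.91 ± 0.046 before and -0.50 ± 0.046 after induction on the log2 scale (adjusted p = 0.000289 and 0.00122). *Gdf6* measured 0.971 and 0.913 RPKM in undifferentiated WT, 0.448 and 0.545 in undifferentiated KO, 4.98 and 5.65 in differentiating WT and 3.00 and 2.65 in differentiating KO. None of the 4 groups of *Gdf6* overlapped. *Gdf6* was 1.75-fold lower in undifferentiated KO and 1.85-fold lower in differentiating KO (adjusted p = 0.00483 and 0.00287), and rose 5.19-fold in WT and 4.92-fold in KO with induction. Folds are on the log2(RPKM + 0.1) scale and understate the change of low genes.

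*Gdf5*, a ligand of joint and cartilage development that prefers *Bmpr1b*, went the other way at a low level. It measured 0.193 and 0.194 RPKM in undifferentiated WT, 0.559 and 0.687 in undifferentiated KO, 0.233 and 0.166 in differentiating WT and 0.272 and 0.210 in differentiating KO. Undifferentiated KO stood above the other 3 groups, which overlapped or lay close together. The difference in undifferentiated MSCs was 2.46-fold (log2 1.30 ± 0.18, adjusted p = 0.00471), it was 0.19 ± 0.18 in differentiating MSCs (adjusted p = 0.435), and KO fell by 1.08 with induction (adjusted p = 0.00198). That fall came to -0.96 without replicate 2 of undifferentiated KO and -0.95 without replicate 2 of differentiating KO. The interaction was -1.10 ± 0.26 (adjusted p = 0.019), but its adjusted p-value was 0.0536, 0.0528, 0.0514 and 0.061 without replicate 1 or 2 of undifferentiated WT, replicate 1 of differentiating WT or replicate 2 of undifferentiated KO, and its size was -0.97 without replicate 2 of differentiating KO. *Gdf5* maps to chromosome 2 (155941023 to 155945367, minus strand).

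Induction raised *Bmp3*, *Bmp6* and *Bmp8a* in both genotypes. *Bmp3*, a BMP relative that opposes osteogenic BMPs, measured 0.0559 and 0.0870 RPKM in undifferentiated WT, 0.0142 and 0.0692 in undifferentiated KO, 0.911 and 0.755 in differentiating WT and 1.22 and 1.09 in differentiating KO. *Bmp6*, an osteogenic ligand also known for hepcidin control, measured 0.571 and 0.600 RPKM in undifferentiated WT, 0.826 and 0.548 in undifferentiated KO, 3.81 and 3.32 in differentiating WT and 5.28 and 5.48 in differentiating KO. The undifferentiated libraries of the genotypes overlapped for both genes, and every differentiating library was higher than every undifferentiated one. *Bmp3* rose by 2.44 ± 0.23 in WT and 3.17 ± 0.23 in KO on the log2 scale, and *Bmp6* by 2.42 ± 0.17 and 2.82 ± 0.17 (adjusted p at most 0.000207). In differentiating MSCs *Bmp6* was 1.50-fold higher in KO (adjusted p = 0.0375), while the difference of *Bmp3* was 0.43 ± 0.23 (adjusted p = 0.183). *Bmp8a* measured 0.566 and 0.578 RPKM in undifferentiated WT, 0.701 and 0.668 in undifferentiated KO, 5.14 and 4.91 in differentiating WT and 4.85 and 5.07 in differentiating KO, a rise of 7.63-fold in WT and 6.45-fold in KO. The differentiating groups of *Bmp8a* overlapped. Its values are uncertain, since *Bmp8a* overlaps *Oxct2a* on the same strand. It also has a close relative, *Bmp8b*, which stayed at or below 0.454 RPKM, and whether reads were shared was not tested.

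*Gdf15* and *Gdf11*, distant members of the family, fell with induction. *Gdf15*, a stress-induced cytokine, measured 33.8 and 31.9 RPKM in undifferentiated WT, 32.8 and 32.2 in undifferentiated KO, 8.56 and 9.29 in differentiating WT and 4.46 and 5.13 in differentiating KO. The undifferentiated genotypes overlapped, and differentiating KO lay below differentiating WT. *Gdf15* fell 3.65-fold in WT and 6.67-fold in KO (interaction -0.87 ± 0.11, adjusted p = 0.0024). *Gdf11*, a ligand that signals through activin receptors and *Smad2* and *Smad3*, averaged 4.93 ± 0.0245 RPKM in undifferentiated WT and 6.23 ± 0.279 in undifferentiated KO, and 3.08 ± 0.0258 and 2.51 ± 0.375 after induction. Its fall was -0.66 ± 0.10 in WT and -1.28 ± 0.10 in KO on the log2 scale. *Bmp2*, a strong osteoinductive ligand, stayed between 0.0555 and 0.190 RPKM in all libraries and passed none of the 5 tests (lowest adjusted p = 0.309).

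In sum over 11 BMP and GDF ligands without *Gdf15*, undifferentiated KO held 16.9 and 17.4 RPKM, against 29.7 and 28.5 in undifferentiated WT, 40.2 and 39.6 in differentiating WT and 33.1 and 32.8 in differentiating KO. *Bmp4* made up 58.7% and 58.1% of this sum in undifferentiated WT and 34.0% and 33.9% in undifferentiated KO, where *Gdf11* held 35.8% and 36.9%. In differentiating MSCs the share of *Bmp4* was 42.5% and 42.3% in WT and 37.0% and 38.0% in KO, and *Bmp6* held 9.48% and 8.38% in WT and 15.9% and 16.7% in KO. Both libraries of undifferentiated KO held more *Gdf11* (6.03 and 6.43 RPKM) than *Bmp4* (5.73 and 5.91 RPKM), and in the other groups *Bmp4* came first. By the test of each gene, 3 ligands were higher and 3 lower in undifferentiated KO, 1 higher and 4 lower in differentiating KO, of 10 tested. Among all genes, 14.7% were higher and 17.5% lower in undifferentiated KO, and 17.8% and 22.9% in differentiating KO.

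**Figure D3:**
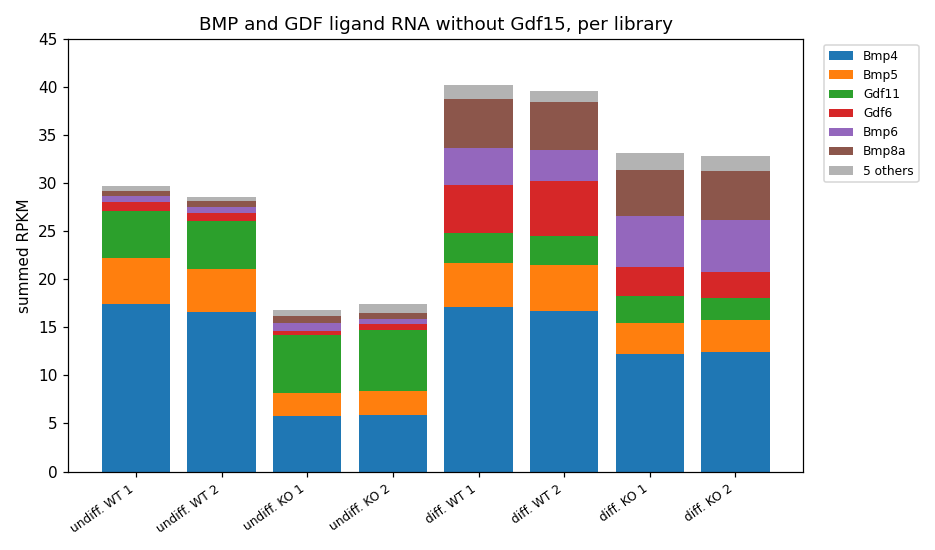
Stacked bars give the summed RPKM of 11 BMP and GDF ligand genes without *Gdf15* in each of the 8 libraries, coloured by gene. Bars of undifferentiated KO reach 16.9 and 17.4 RPKM and those of differentiating WT 40.2 and 39.6, and the *Bmp4* segment is shortest in undifferentiated KO.

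The TGF-beta, activin and inhibin ligands held 2 of the 7 genes called for the interaction, *Tgfb1* and *Inhba*. *Tgfb1*, the prototype TGF-beta of matrix deposition and immune control, measured 2.00 and 1.82 RPKM in undifferentiated WT, 3.19 and 3.24 in undifferentiated KO, 2.52 and 2.31 in differentiating WT and 1.25 and 1.34 in differentiating KO. No groups overlapped, with undifferentiated KO highest and differentiating KO lowest. KO exceeded WT by 0.72 ± 0.076 before induction and lay -0.85 ± 0.076 from WT after it on the log2 scale (adjusted p = 0.00194 and 0.00116), an interaction of -1.57 ± 0.11 (adjusted p = 0.000598). The gene maps to chromosome 7 (25687002 to 25705077, plus strand).

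*Tgfb3* was the most abundant TGF-beta isoform in every group. It averaged 165 ± 6.71 RPKM in undifferentiated WT, 115 ± 2.82 in undifferentiated KO, 47.5 ± 1.72 in differentiating WT and 38.0 ± 1.74 in differentiating KO. *Tgfb3* fell 3.47-fold in WT and 3.02-fold in KO, and was lower in KO in both states (log2 -0.52 ± 0.050 and -0.32 ± 0.050). *Tgfb2* varied little, with group means between 13.7 and 19.2 RPKM, and was lower in undifferentiated KO (-0.31 ± 0.051, adjusted p = 0.00773). Relative to *Tgfb1*, *Tgfb3* stood 80.2- to 93.2-fold higher in undifferentiated WT, 34.9- to 36.7-fold in undifferentiated KO, 18.4- to 21.1-fold in differentiating WT and 27.4- to 31.4-fold in differentiating KO.

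*Inhba* and *Inhbb* encode the beta A and beta B subunits of activins. *Inhba* measured 101 and 100.1 RPKM in undifferentiated WT, 114 and 117 in undifferentiated KO, 20.8 and 22.9 in differentiating WT and 12.7 and 11.7 in differentiating KO. Its groups did not overlap, with KO highest before and lowest after induction. The drop was 4.58-fold in WT and 9.38-fold in KO (log2 -2.20 ± 0.058 and -3.23 ± 0.058), and the interaction was -1.03 ± 0.082 (adjusted p = 0.000843), close to the limit of the call: it was -0.97 without replicate 2 of differentiating WT and -0.98 without replicate 2 of differentiating KO. *Inhbb* moved the other way, with means of 16.1 ± 0.0849 and 22.9 ± 0.596 RPKM in undifferentiated WT and KO and 29.8 ± 1.01 and 43.3 ± 2.92 after induction. KO exceeded WT for *Inhbb* in both states (log2 0.51 ± 0.053 and 0.54 ± 0.053, adjusted p = 0.00192 and 0.00139). Within a library the ratio of *Inhba* to *Inhbb* was 6.23 to 6.25 in undifferentiated WT, 4.90 to 5.21 in undifferentiated KO, 0.682 to 0.786 in differentiating WT and 0.259 to 0.309 in differentiating KO, so the more abundant activin subunit RNA changed from beta A to beta B with induction. *Inha*, the inhibin alpha subunit gene, was low in all libraries (0.510 to 1.54 RPKM) and was higher in differentiating KO (0.76 ± 0.22, adjusted p = 0.0367). *Inhba* maps to chromosome 13 (16011851 to 16031621, plus strand).

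Of 11 receptor genes, 6 rose and 2 fell with induction in WT, where 31.6% of all genes rose and 32.8% fell, and 8 rose and 2 fell in KO, where 36.4% and 36.6% did. None was called between genotypes. *Tgfbr3*, the co-receptor betaglycan that presents TGF-beta and inhibin, measured 11.5 and 11.0 RPKM in undifferentiated WT, 19.2 and 19.2 in undifferentiated KO, 81.7 and 71.9 in differentiating WT and 95.3 and 108 in differentiating KO. *Acvrl1* (ALK1), a type I receptor for BMP9 and BMP10, measured 5.91 and 6.20 RPKM in undifferentiated WT, 5.52 and 5.64 in undifferentiated KO, 29.0 and 28.3 in differentiating WT and 37.6 and 39.7 in differentiating KO. In neither gene did the groups overlap, and all differentiating libraries were above all undifferentiated ones. *Tgfbr3* rose 6.77-fold in WT and 5.26-fold in KO, and *Acvrl1* 4.67-fold and 6.82-fold (adjusted p at most 2.67e-06). *Acvr1b* (ALK4), the type I receptor of activin, averaged 2.64 ± 0.0119 and 3.20 ± 0.0906 RPKM in undifferentiated WT and KO and 8.84 ± 0.593 and 13.7 ± 0.865 after induction, a rise of 3.26-fold and 4.17-fold. Endothelial markers are given beside *Acvrl1* because that receptor is best known from endothelium. Of 5 such markers, *Pecam1*, *Cdh5* and *Emcn* did not exceed 0.132 RPKM in any library and were not tested, whereas *Kdr* and *Tek* were called higher with induction in both genotypes. The 5 genes summed to 0.719 to 0.843 RPKM in undifferentiated WT, 0.537 to 0.563 in undifferentiated KO, 2.63 to 3.11 in differentiating WT and 4.12 to 4.65 in differentiating KO. *Tek* made the largest part of that sum and, like *Acvrl1*, was highest in differentiating KO (3.62 and 4.13 RPKM), and the part of these markers in the rise of *Acvrl1* was not tested.

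The type II receptor genes *Tgfbr2* and *Acvr2a* were lower in undifferentiated KO and higher in differentiating KO. *Tgfbr2*, the type II receptor of TGF-beta, averaged 57.2 ± 3.00 RPKM in undifferentiated WT, 35.3 ± 0.579 in undifferentiated KO, 78.9 ± 2.23 in differentiating WT and 92.8 ± 2.52 in differentiating KO. Its difference between KO and WT was -0.69 ± 0.046 before and 0.23 ± 0.046 after induction, an interaction of 0.93 ± 0.065 (adjusted p = 0.000663). *Acvr2a*, a type II receptor shared by activins and BMPs, averaged 8.23 ± 0.192 and 5.66 ± 0.254 RPKM in undifferentiated WT and KO and 13.1 ± 0.540 and 16.3 ± 1.22 after induction, with an interaction of 0.84 ± 0.092 (adjusted p = 0.00174). Neither was called between genotypes or for the interaction. Induction raised *Tgfbr2* 1.38-fold in WT and 2.62-fold in KO, and *Acvr2a* 1.59-fold and 2.84-fold, both called in KO. Of the 11 receptor genes, 6 were higher and 1 lower in differentiating KO (17.8% and 22.9% of all genes). In undifferentiated KO 3 were higher and 4 lower (14.7% and 17.5% of all genes).

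The type I BMP receptor genes differed in opposite directions in undifferentiated MSCs. *Bmpr1a* (ALK3) averaged 37.0 ± 0.262 RPKM in undifferentiated WT, 30.6 ± 0.884 in undifferentiated KO, and 34.5 ± 2.05 in differentiating WT, stood at 39.2 to 40.6 RPKM in differentiating KO, and was lower in KO before induction (log2 -0.27 ± 0.048, adjusted p = 0.00951) and higher after it (0.21 ± 0.048, adjusted p = 0.017). *Bmpr1b* (ALK6) averaged 2.85 ± 0.134 RPKM in undifferentiated WT and 4.30 ± 0.112 in undifferentiated KO, and 1.38 ± 0.0564 and 1.24 ± 0.0668 after induction, with KO higher before induction (adjusted p = 0.00273) and a difference of -0.14 ± 0.068 after it (adjusted p = 0.146). The interaction was -0.72 ± 0.10 (adjusted p = 0.00316). *Bmpr1b* fell by 0.99 in WT and by 1.71 in KO on the log2 scale; the WT value lies at the limit of a call, and was -1.04 without replicate 1 of undifferentiated WT and -1.03 without replicate 2 of differentiating WT. The ratio of *Bmpr1b* to *Bmpr1a* was 0.141 in undifferentiated KO (0.140 to 0.141), 0.0751 to 0.0794 in undifferentiated WT and at most 0.0431 after induction. *Bmpr2*, the type II BMP receptor, *Acvr1* (ALK2), *Acvr2b* and *Tgfbr1* had absolute log2 differences of at most 0.41 between genotypes, and *Acvr2b* was low (at most 0.579 RPKM). *Tgfbr1* (ALK5), the type I receptor of TGF-beta, stayed at 10.4 to 13.1 RPKM, and the ratio of *Acvrl1* to *Tgfbr1* within a library was 0.450 to 0.474 in undifferentiated WT, 0.508 to 0.515 in undifferentiated KO, 2.64 to 2.67 in differentiating WT and 3.59 to 3.81 in differentiating KO.

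**Figure D4:**
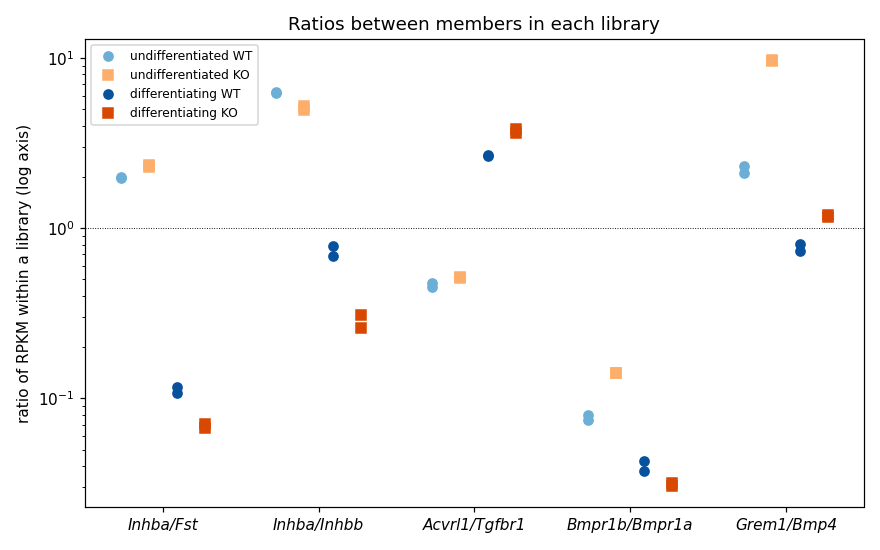
Points give the ratio of 2 RPKM values within each of the 8 libraries (log axis, dotted line at equal values) for 5 pairs of genes, with colours and symbols by group. *Inhba* to *Fst* and *Inhba* to *Inhbb* lie above 1 before induction and below it after, *Acvrl1* to *Tgfbr1* the reverse, and *Grem1* to *Bmp4* is highest in undifferentiated KO (9.59 to 9.68).

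Of the 8 Smad genes *Smad9* was the one called between genotypes. *Smad9*, a receptor Smad of the BMP branch encoding SMAD8, measured 1.37 and 1.31 RPKM in undifferentiated WT, 2.91 and 2.78 in undifferentiated KO, 3.28 and 3.05 in differentiating WT and 3.24 and 4.04 in differentiating KO. Undifferentiated WT lay below the other groups, while the differentiating genotypes overlapped. *Smad9* was 2.05-fold higher in undifferentiated KO (log2 1.04 ± 0.11, adjusted p = 0.00188), just past the limit, and 0.95 with quantile normalization. Induction raised it 2.27-fold in WT and 1.26-fold in KO, an interaction of -0.85 ± 0.15 (adjusted p = 0.00788) that came to -1.004 without replicate 2 of differentiating KO. The gene lies on chromosome 3 (54755582 to 54801257, plus strand).

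The other receptor Smads of the BMP branch differed less. *Smad1* averaged 11.0 ± 0.0195 and 11.1 ± 0.279 RPKM in undifferentiated WT and KO, and 15.8 ± 0.221 and 19.7 ± 0.833 after induction, where KO was higher (0.32 ± 0.040, adjusted p = 0.00271). *Smad5* passed none of the 5 tests and stayed between 13.0 and 14.3 RPKM. On the TGF-beta side, *Smad3* fell in both genotypes (log2 -0.82 ± 0.056 in WT and -0.49 ± 0.056 in KO) and was higher in differentiating KO (0.38 ± 0.056), while *Smad2* fell by 0.30 and 0.21. *Smad4*, the common partner, rose by 0.21 ± 0.044 in WT and 0.43 ± 0.044 in KO.

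The inhibitory Smads moved apart. *Smad6*, which acts mainly on the BMP branch, was higher in KO in both states, with means of 17.1 ± 0.931 and 24.6 ± 0.381 RPKM in undifferentiated WT and KO and 17.5 ± 0.195 and 22.1 ± 0.765 in differentiating WT and KO (log2 0.52 ± 0.047 and 0.33 ± 0.047). *Smad7*, which acts on both branches, averaged 13.5 ± 0.00396 and 15.7 ± 0.0156 RPKM before and 6.79 ± 0.290 and 4.88 ± 0.144 after induction. KO exceeded WT for *Smad7* before (0.22 ± 0.042) and was below it after induction (-0.47 ± 0.042), an interaction of -0.69 ± 0.059 (adjusted p = 0.00101). Its fall with induction was 3.17-fold in KO and 1.97-fold in WT, the latter just short of a call and -1.02 on the log2 scale without replicate 2 of differentiating WT.

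Among antagonists, *Chrdl1* had the largest rise of the 50 tested genes in KO, and in WT too except with a pseudocount of 1 (log2 2.62, against 2.66 for *Tgfbr3*). *Chrdl1*, chordin-like 1, an extracellular BMP antagonist whose gene lies on chromosome X (143285674 to 143394262, minus strand), measured 0.506 and 0.431 RPKM in undifferentiated WT, 0.277 and 0.314 in undifferentiated KO, 8.82 and 7.35 in differentiating WT and 19.3 and 23.0 in differentiating KO. The groups did not overlap, with KO lowest before and highest after induction. It rose 14.4-fold in WT and 53.6-fold in KO (log2 3.84 ± 0.13 and 5.74 ± 0.13), and the interaction was 1.90 ± 0.19 (adjusted p = 0.00139). KO was 1.44-fold lower before (adjusted p = 0.03) and 2.60-fold higher after induction (adjusted p = 0.00133).

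The other antagonists split by direction with induction, 4 higher and 3 lower of 7 in both genotypes, *Chrdl1* included. All genes tested split into 31.6% higher and 32.8% lower in WT, and 36.4% and 36.6% in KO. *Fst*, follistatin, averaged 50.7 ± 0.522 and 50.1 ± 0.0168 RPKM in undifferentiated WT and KO and 196 ± 1.55 and 178 ± 3.14 after induction, a rise of 3.86-fold and 3.54-fold. The ratio of *Inhba* to *Fst* within a library went from 1.96 to 2.00 in undifferentiated WT and 2.27 to 2.33 in undifferentiated KO to 0.107 to 0.116 in differentiating WT and 0.0669 to 0.0708 in differentiating KO. *Grem1*, Gremlin 1, a BMP antagonist of marrow and limb mesenchyme, averaged 37.6 ± 1.18 and 56.1 ± 1.54 RPKM before and 13.0 ± 0.685 and 14.6 ± 0.368 after induction. *Grem1* was 1.49-fold higher in undifferentiated KO (adjusted p = 0.00102) and fell 2.88-fold in WT and 3.82-fold in KO. Its ratio to *Bmp4* was 2.11 to 2.32 in undifferentiated WT, 9.59 to 9.68 in undifferentiated KO, 0.732 to 0.805 in differentiating WT and 1.17 to 1.19 in differentiating KO. *Grem1* RNA therefore exceeded *Bmp4* RNA in 6 of 8 libraries.

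*Nog*, the BMP antagonist noggin, measured 0.746 and 1.16 RPKM in undifferentiated WT and 0.796 and 0.856 in undifferentiated KO, which overlapped, and rose by 1.06 ± 0.19 in WT and 0.81 ± 0.19 in KO on the log2 scale. The call in WT rested on 1 library, since the rise was 0.78 without replicate 1 of undifferentiated WT. *Fstl1* rose 1.39-fold and 1.49-fold and did not pass the test between genotypes in either state (log2 -0.10 ± 0.049 and -0.00098 ± 0.049). *Fstl3*, a further activin-binding protein, and *Bambi*, a receptor decoy without kinase domain, fell in both genotypes, by 0.29 and 0.54 and by 0.37 and 0.68.

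Latent TGF-beta binding proteins were higher in undifferentiated KO in 3 of 4 genes and lower in differentiating KO in 2 of 4. The shares of all genes were 14.7% and 22.9%. *Ltbp2*, which binds fibrillin but not latent TGF-beta, measured 56.0 and 53.8 RPKM in undifferentiated WT, 86.1 and 81.8 in undifferentiated KO, 35.2 and 36.5 in differentiating WT and 18.03 and 17.5 in differentiating KO. No groups overlapped, and KO was the highest group before and the lowest after induction. KO exceeded WT by 0.61 ± 0.041 before (adjusted p = 0.000506) and was -1.01 ± 0.041 from WT after induction (adjusted p = 0.000216). The latter lies at the limit of a call and was -0.98 without replicate 2 of differentiating WT and -0.99 without replicate 2 of differentiating KO. *Ltbp2* fell 1.53-fold in WT and 4.70-fold in KO, and its interaction of -1.62 ± 0.057 (adjusted p = 9.43e-05) was close to that of *Tgfb1*. The gene lies on chromosome 12 (84783212 to 84876532, minus strand).

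*Ltbp1*, a carrier of latent TGF-beta, averaged 51.9 ± 0.144 and 56.5 ± 0.497 RPKM in undifferentiated WT and KO and 55.4 ± 0.134 and 38.3 ± 2.71 after induction. It was lower in differentiating KO (-0.54 ± 0.048, adjusted p = 0.00117) with an interaction of -0.66 ± 0.068. *Ltbp3* and *Ltbp4*, at means of 5.06 ± 0.806 and 1.18 ± 0.150 RPKM in undifferentiated WT, were higher in undifferentiated KO (0.93 ± 0.16 and 0.71 ± 0.14, adjusted p = 0.009 and 0.0142), and *Ltbp3* reached 1.09 without replicate 1 of undifferentiated WT. In differentiating MSCs their differences were 0.24 ± 0.16 and -0.012 ± 0.14 (adjusted p = 0.291 and 0.962).

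All 4 Id genes were higher in undifferentiated KO than in undifferentiated WT (14.7% of all genes were) and higher with induction in WT (31.6%). The Id proteins dimerise with helix-loop-helix factors and keep them from DNA. *Id1* measured 50.7 and 56.8 RPKM in undifferentiated WT, 79.0 and 81.7 in undifferentiated KO, 89.8 and 87.7 in differentiating WT and 66.9 and 54.7 in differentiating KO. Differentiating WT was highest and undifferentiated WT lowest in mean, and replicate 2 of differentiating KO (54.7 RPKM) fell within undifferentiated WT. KO was 1.50-fold higher before and 1.47-fold lower after induction (adjusted p = 0.00908 and 0.00842). *Id1* rose by 0.72 ± 0.10 in WT and fell by 0.41 in KO, an interaction of -1.13 ± 0.14 (adjusted p = 0.0026) that came to -0.99 without replicate 2 of differentiating KO. The gene lies on chromosome 2 (152736251 to 152737410, plus strand).

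*Id2*, *Id3* and *Id4* rose with induction in both genotypes. *Id4* averaged 11.3 ± 0.427 and 13.0 ± 0.103 RPKM before and 56.9 ± 2.27 and 58.5 ± 0.955 after induction in WT and KO, a rise of 4.99-fold and 4.47-fold. *Id2* averaged 14.4 ± 0.218 and 21.2 ± 1.45 RPKM before and 32.3 ± 1.07 and 44.9 ± 1.19 after, and was higher in KO in both states (log2 0.55 ± 0.054 and 0.48 ± 0.054). *Id3* averaged 334 ± 18.8 and 413 ± 13.0 RPKM before and 564 ± 7.98 and 557 ± 35.2 after. In differentiating MSCs *Id3* and *Id4* differed between genotypes by -0.020 ± 0.063 and 0.040 ± 0.042 (adjusted p = 0.836 and 0.481). The promoter windows of *Id2* (chr12:25096043-25096342, minus strand), *Id3* (chr4:136143572-136143871, plus), *Id4* (chr13:48260866-48261165, plus) and *Smad6* (chr9:64022010-64022309, minus) are shown as those of Id genes and inhibitory Smads. Each of these BMP targets was higher in undifferentiated KO. No window was found for *Id1* or *Smad7*, which were higher too. BMP targets did not all behave so: of 8 others tested, 2 were higher in undifferentiated KO (14.7% of all genes were) and 6 did not pass the test. Counted from the transcript start, GGCGCC begins at -231 in *Id2* and at -148 in *Id4*, CAGAC at -167 and -68 in *Id3* (the latter on the other strand), and GTCTAGAC at -4 in *Smad6*. They hold 21, 19, 39 and 31 CpG dinucleotides in the order printed.
Id2: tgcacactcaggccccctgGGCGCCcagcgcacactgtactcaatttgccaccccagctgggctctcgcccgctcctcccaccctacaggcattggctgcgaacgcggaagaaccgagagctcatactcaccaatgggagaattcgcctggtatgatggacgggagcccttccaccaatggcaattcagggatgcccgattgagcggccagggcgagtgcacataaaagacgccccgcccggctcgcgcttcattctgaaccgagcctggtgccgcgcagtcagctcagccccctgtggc
Id3: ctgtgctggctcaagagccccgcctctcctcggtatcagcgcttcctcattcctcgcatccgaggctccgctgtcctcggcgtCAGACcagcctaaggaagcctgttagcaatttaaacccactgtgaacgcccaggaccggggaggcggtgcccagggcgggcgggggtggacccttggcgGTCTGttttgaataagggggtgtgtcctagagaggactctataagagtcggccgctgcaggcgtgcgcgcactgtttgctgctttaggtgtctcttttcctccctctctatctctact
Id4: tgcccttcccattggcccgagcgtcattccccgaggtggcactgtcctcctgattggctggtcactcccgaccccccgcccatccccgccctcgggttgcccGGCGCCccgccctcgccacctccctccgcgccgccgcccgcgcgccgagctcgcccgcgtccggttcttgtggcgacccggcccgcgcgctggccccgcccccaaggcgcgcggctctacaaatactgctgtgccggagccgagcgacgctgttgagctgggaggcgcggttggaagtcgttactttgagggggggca
Smad6: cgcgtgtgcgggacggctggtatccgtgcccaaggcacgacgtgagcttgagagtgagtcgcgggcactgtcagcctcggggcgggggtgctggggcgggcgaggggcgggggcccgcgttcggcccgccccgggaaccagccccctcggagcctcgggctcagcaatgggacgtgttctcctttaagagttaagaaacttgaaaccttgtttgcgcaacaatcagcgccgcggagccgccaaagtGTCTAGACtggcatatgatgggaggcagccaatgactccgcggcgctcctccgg

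Promoter windows were found for 36 of the 52 genes, with 45 windows in all because some genes have several starts. GGCGCC occurred in 13 of these and in 11.9% of all 32851 windows of the same length, GTCTAGAC in 1 and in 0.213%, and CAGAC in 22 and in 49.6%. These are counts of windows, not genes. Windows of a gene can overlap, as for *Ltbp4* and *Smad5*, so 1 site may be counted more than once. CpG dinucleotides had a median of 23 in the 45 windows and of 7 in all windows. GGCGCC itself contains a CpG, and its count was not compared with windows of like CpG content. A match describes letters only and no binding was measured.

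The response to induction differed by genotype in both directions. For the interaction 7 genes were called. *Bmp4* and *Chrdl1* responded more upward in KO, and *Ltbp2*, *Tgfb1*, *Id1*, *Gdf5* and *Inhba* more downward. By the adjusted p-value alone, 12 genes had a positive and 15 a negative interaction (19.4% and 20.0% of all genes tested, 39.4% in all). The proliferation markers and *Col2a1* also had a negative interaction, in 5 of 5 genes and 2 of 2 chondrocyte genes tested, *Col2a1* falling from 119 to 123 RPKM in undifferentiated WT to 39.1 to 45.1 and from 133 to 134 RPKM in undifferentiated KO to 7.21 to 9.40. Their part in the interactions of *Ltbp2*, *Tgfb1*, *Id1*, *Gdf5* and *Inhba* was not tested.

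**Figure D5:**
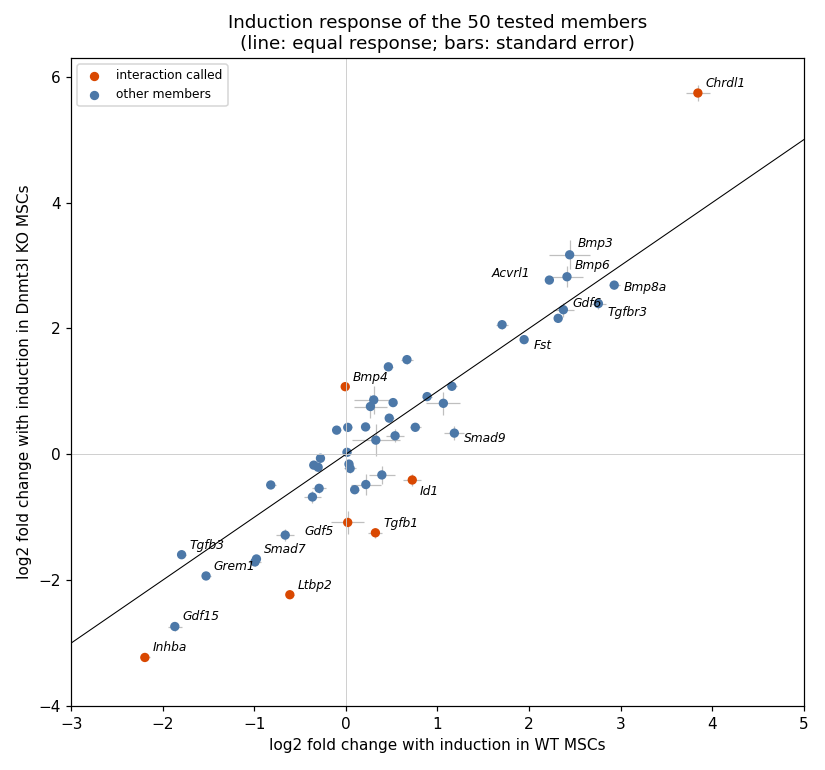
Each point is 1 of the 50 tested genes, with the log2 fold change upon induction in WT (horizontal) and KO (vertical), standard errors from limma as bars, and the line of equal response. *Chrdl1* lies farthest out (3.84 and 5.74), the 7 genes called for the interaction are coloured, and *Bmp4* and *Chrdl1* lie above the line while *Ltbp2*, *Tgfb1*, *Id1*, *Gdf5* and *Inhba* lie below it.

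Beyond these genes, 71 further symbols of the pathway were looked up, of which 69 were in the table and 52 were tested. Between undifferentiated genotypes 1 of 52 was called, *Tgfbi* higher in KO, a share near the 1.70% of all genes, and 15 were higher and 9 lower by the adjusted p-value alone (14.7% and 17.5% of all genes). Between differentiating genotypes 3 were called, among them *Thbs1* higher and *Ctgf* lower, against 3.30% of all genes, with 11 higher and 13 lower by the adjusted p-value alone (17.8% and 22.9%). The values of *Thbs1* are in doubt, as given below, and that gene also enters the induction count in KO among those called higher. Induction called 5 higher and 10 lower in WT (9.69% and 4.63% of all genes) and 6 higher and 13 lower in KO (13.0% and 9.87%). The median log2 fold change with induction was -0.075 in WT and -0.25 in KO.

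Among target genes of TGF-beta, *Ctgf*, *Pmepa1* and *Tgfbi* fell with induction in both genotypes, whereas *Cdkn2b* rose. *Tgfbi*, a matrix protein induced by TGF-beta, measured 14.1 and 13.1 RPKM in undifferentiated WT, 28.4 and 29.4 in undifferentiated KO, 1.59 and 1.26 in differentiating WT and 1.84 and 1.88 in differentiating KO. It was higher in KO before induction (1.08 ± 0.10, adjusted p = 0.00135). *Ctgf*, a matricellular protein, measured 727 and 789 RPKM in undifferentiated WT, 716 and 687 in undifferentiated KO, 169.8 and 192 in differentiating WT and 69.4 and 48.3 in differentiating KO. The undifferentiated difference was -0.11 ± 0.17 (adjusted p = 0.648), and differentiating KO was -1.64 ± 0.17 from WT (adjusted p = 0.00146). *Thbs1*, thrombospondin 1, an activator of latent TGF-beta, was listed at 0 in 6 libraries and at 1029 and 970.3 RPKM in differentiating KO. An exact 0 beside such a level can be a failed estimate, so no fold is given.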

How the data were processed

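Stranded, ribosomal RNA-depleted libraries had been read as 50-base single ends. Per the submitters' processing notes, the authors aligned reads to mm10 with TopHat2 2.1.0 and used Cufflinks 2.2.1 and Cuffdiff; the authors deposited RPKM of single replicates. How Cuffdiff scaled libraries is not given in the sources used here. Each column was matched to a sample by its label, and 0 columns of values were left without a sample. Depth was estimated from low values of 3797 genes with 1 transcript, of which 69.4% to 72.5% were whole reads within 0.05 (10% by chance), too few for a count test. The 15342 genes whose mean reached 0.1 RPKM were fitted as log2(RPKM + 0.1) in limma 3.58.1 (R 4.3.3) with a variance trend, a mean per group and 4 residual and 1.98 prior degrees of freedom. P-values were two-sided and adjusted by Benjamini-Hochberg over all genes tested. The fit was tested on simulated data. Genes named with every library's value were those called between genotypes or for the interaction and, per induction comparison, the 6 called genes with the largest change, and of the further pathway genes those called between genotypes. Other pathway genes of the closing section were picked with their values in view. The genes, lists and rule were chosen with earlier results of these data known. Alternatives covered the pseudocount, the minimum, scaling, the trend, a replicate block, the libraries fitted and each library left out. Promoter windows are from RefSeq (GRCm38.p6), and positions are from GENCODE for the same build. Some genes of the further pathway list enter the counts but are not reported here by name.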

Additional observations from a re-analysis of the deposited data

Results flagged for a closer look

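For 7 of the 50 tested genes the response to induction differed between genotypes by the test of the interaction in limma, with an absolute log2 difference above 1 between the KO and the WT response. These responses were more negative in KO for *Ltbp2* (-1.62), *Tgfb1* (-1.57), *Id1* (-1.13), *Gdf5* (-1.10) and *Inhba* (-1.03). They were more positive in KO for *Chrdl1* (1.90) and *Bmp4* (1.08). *Tgfb1* and *Id1* rose with induction in WT and fell in KO, and within a genotype their undifferentiated and differentiating libraries did not overlap. The calls of *Gdf5*, *Inhba* and *Id1* were lost when a single library was left out, with the values given beside each gene, and those of *Ltbp2*, *Tgfb1*, *Bmp4* and *Chrdl1* were kept in all 8 such refits. With a pseudocount of 1 the call of *Bmp4* was lost (0.98), as were those of *Gdf5* and *Inhba*.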

How the results depend on the processing

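With 2 libraries per group, calls at the 2-fold limit depend on single libraries, and RPKM of low genes rest on few reads. Of 891 refits of the 53 called values of these genes, 860 kept the call, 31 lost it and 0 reversed. Many of these refits could not change the fold. Changing the minimum, the trend or the replicate block leaves it as it was, as does leaving out a library of a group not compared. Genes removed by the minimum of 0.5 RPKM were not counted as lost. The number kept is therefore no measure of how firm the calls are. A pseudocount of 1 gave the lowest counts: 99, 234, 1249, 2267 and 479 of all genes called for undifferentiated KO against WT, differentiating KO against WT, induction in WT, induction in KO and the interaction, against 261, 507, 2198, 3511 and 947. It also left 0 of these genes called higher in undifferentiated KO (main 2), 0 lower in differentiating KO (main 1), and 1 higher and 3 lower for the interaction (main 2 and 5). A pseudocount of 0.01 called 402 of all genes in undifferentiated MSCs. A minimum mean of 0.5 RPKM and quantile normalization each left 1 gene called higher in undifferentiated KO. With a single library left out, 0 to 1 genes were called lower in differentiating KO (0 without replicate 2 of differentiating WT or of differentiating KO) and 3 to 5 lower for the interaction (3 without replicate 2 of differentiating KO). Of 169 differences that passed the test, 9 failed it with quantile normalization and 6 with median centring. Deviations of same-numbered libraries correlated at -0.092 to 0.030 over the 6 pairs of groups. Counting noise of low genes enters these correlations, so they cannot tell whether same-numbered libraries shared a mix or culture. With the replicate block, the counts of all genes were 244, 504, 2194, 3511 and 922, and the counts of these genes were as without it.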

Other observations

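Other genes of the pathway that were called with induction in both genotypes held antagonists and intracellular regulators, and the ones named here were chosen after their values were seen. *Chrd*, chordin, measured 1.94 and 1.79 RPKM in undifferentiated WT, 1.62 and 1.78 in undifferentiated KO, 10.8 and 10.8 in differentiating WT and 17.6 and 17.9 in differentiating KO. It rose by 2.47 ± 0.061 in WT and 3.31 ± 0.061 in KO on the log2 scale, and its interaction was 0.84 ± 0.086 (adjusted p = 0.00147, limma). Like its relative *Chrdl1*, *Chrd* was highest in differentiating KO without overlap. *Nbl1*, a BMP antagonist of the DAN family, measured 75.5 and 74.3 RPKM in undifferentiated WT, 83.2 and 85.7 in undifferentiated KO, 178 and 174 in differentiating WT and 263 and 280.2 in differentiating KO.

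*Skil* and *Tgif1*, nuclear repressors of Smad signalling, fell with induction in both genotypes. *Skil* measured 17.5 and 18.3 RPKM in undifferentiated WT, 14.4 and 14.2 in undifferentiated KO, 4.60 and 4.25 in differentiating WT and 3.14 and 2.94 in differentiating KO. *Tgif1* fell by 1.79 in WT and by 1.40 in KO. *Sp7*, the osteoblast transcription factor osterix and a target of BMP signalling, measured 7.28 and 7.84 RPKM in undifferentiated WT, 7.76 and 8.63 in undifferentiated KO, 3.12 and 3.11 in differentiating WT and 1.36 and 1.69 in differentiating KO. The undifferentiated genotypes of *Sp7* overlapped, differentiating KO was lowest, and the interaction was -1.10 ± 0.15 (adjusted p = 0.00327). Of 8 tested BMP target genes other than the Id genes, 5 had a negative and 1 a positive interaction by the adjusted p-value, against 20.0% and 19.4% of all genes.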
